A study of Mus musculus with 6 samples.

Results

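The annexins, the S100 proteins, the caveolins and cavins of caveolae, and the AHNAK scaffolds were followed in lenses of mouse embryos at E15.5 with a conditional deletion of Itgb1, the gene of β1-integrin. The genes were selected on their names: all annexins (Anxa) and numbered S100 genes in the deposited files, S100b, S100g, S100z, the caveolins Cav1 and Cav2, the cavins Ptrf, Sdpr and Prkcdbp, and the scaffolds Ahnak and Ahnak2. These names gave 35 of the 41128 listed features: 12 annexins, 16 S100 genes, 5 caveolin or cavin genes and 2 AHNAK genes. The families were chosen by their values in the contrast described here, with earlier results of these libraries known, so every fold change, count and adjusted p of a member is a description of these libraries and supports nothing beyond them. The knockout group (cKO) was beta1 Flox/Flox MLR10 Cre+ on a mix strain background, with 30 lenses pooled in each of 3 biological replicates. The wild-type group was C57Bl/6, with no floxed allele or Cre in its labels and 75 lenses pooled in each of 3 biological replicates; these records are copies of samples first deposited in another series. MLR10 is a Cre transgene driven by a modified αA-crystallin promoter, which is active in the epithelial and fibre cells of the lens. Strain background, number of pooled lenses and original series separate the groups exactly as genotype does, so their parts in any difference cannot be told apart.

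Annexins are cytosolic proteins that bind acidic phospholipids when calcium is present, and they link membranes to one another and to actin at sites of membrane traffic and repair. S100 proteins are small calcium binders with paired EF-hand loops that act mostly as dimers, and several of them bind a particular annexin. In the best known of these complexes a dimer of S100A10 joins a pair of annexin A2 molecules, and AHNAK, a very large scaffold protein, docks on that complex below the plasma membrane. Caveolae are flask-shaped pits of the plasma membrane built from caveolins, with a coat of cavins whose central subunit is cavin 1, encoded by Ptrf. Lens fibre cells are long and packed membrane to membrane, and caveolins and annexins have both been described in lens membranes.

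Expression was given as CPM, the reads of a gene scaled to 1000000 reads counted in its library, and as RPKM, CPM per kilobase of gene length, which is the scale used here to compare genes with one another. The cKO libraries held 20036554, 20214477 and 28095318 reads and the wild-type libraries 11531139, 11407157 and 10023049 reads, so 1 read was worth 0.0356 to 0.0998 CPM. Itgb1, the targeted gene, had 236, 275 and 262 CPM in cKO lenses, against 402, 424 and 448 CPM in wild-type lenses. Markers of cells that border the lens moved with the groups. The summed level of 12 endothelial markers was 242 to 288 CPM in cKO, against 152 to 185 CPM in wild type, with 10 of 12 higher. The sum of 12 macrophage markers was 27.2 to 37.9 CPM in cKO, against 11.4 to 13.6 CPM in wild type, with 9 of the 10 tested higher. Tyrobp and Fcer1g reached 1 CPM only in cKO and so had to differ, and 7 of the other 8 were higher. Among those 8, Cd68, C1qa and C1qb reached 1 CPM in only 1 wild-type library each, so they too entered the fit through their cKO level. The sum of 10 periocular mesenchyme markers was 34.0 to 53.2 CPM in cKO, against 17.4 to 21.04 CPM in wild type, with 4 of the 5 tested higher and the defining marker Foxc2 listed at 0. Of 6 pericyte markers 4 were higher and 1 was lower, with sums of 143 to 167 CPM in cKO, against 102 to 130 CPM in wild type. Of 5 tested erythroid markers 2 were higher and 1 was lower, and none of the 2 surface ectoderm, 1 neural retina and 2 pigment cell markers tested was called. The 10 lens markers summed to 185169 to 211120 CPM in cKO, against 194492 to 210891 CPM in wild type. Of these 10, Mip and Foxe3 were lower. Beside all these marker counts, 20.9% of all genes tested were higher and 15.9% lower, and the lens count is near the latter share. Annexin A2, S100A6, AHNAK and cavin 1 are also made by endothelial, mesenchymal and myeloid cells, and the part of those cells in the values below was not tested. In pooled whole lenses, more cells of a type and more RNA per cell cannot be told apart.

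Promoter windows are shown for the 5 genes with the largest change or the highest level per length in cKO in their family, because these are the genes on which the comparison turns. Each runs from 250 bases before to 50 after the RefSeq start (GRCm38.p6), is written 5′ to 3′ on the gene's own strand, and lies at chr19:8989034-8989333 (+) for Ahnak, chr19:20390622-20390921 (-) for Anxa1, chr9:69453433-69453732 (+) for Anxa2, chr11:100970568-100970867 (-) for Ptrf (the first of its 2 windows) and chr3:90612644-90612943 (+) for S100a6. Capitals mark matches, on either strand, to the motifs spelled out in the paragraph that follows the sequences.
Ahnak: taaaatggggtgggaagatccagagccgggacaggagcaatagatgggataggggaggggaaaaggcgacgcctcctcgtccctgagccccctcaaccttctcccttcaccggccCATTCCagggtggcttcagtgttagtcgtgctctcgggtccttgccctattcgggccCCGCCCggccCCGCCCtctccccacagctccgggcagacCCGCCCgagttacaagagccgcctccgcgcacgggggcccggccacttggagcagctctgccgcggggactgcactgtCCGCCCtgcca
Anxa1: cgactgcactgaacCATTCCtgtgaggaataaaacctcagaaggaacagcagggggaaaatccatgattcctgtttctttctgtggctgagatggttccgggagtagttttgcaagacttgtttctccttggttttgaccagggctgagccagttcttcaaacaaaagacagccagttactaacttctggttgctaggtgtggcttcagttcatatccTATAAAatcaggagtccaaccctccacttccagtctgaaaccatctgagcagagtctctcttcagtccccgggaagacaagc
Anxa2: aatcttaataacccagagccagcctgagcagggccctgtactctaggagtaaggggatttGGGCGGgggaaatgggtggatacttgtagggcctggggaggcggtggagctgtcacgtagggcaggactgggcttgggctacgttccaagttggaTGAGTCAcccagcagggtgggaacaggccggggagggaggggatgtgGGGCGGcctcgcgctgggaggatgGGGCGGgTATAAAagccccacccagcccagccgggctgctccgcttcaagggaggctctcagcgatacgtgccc
Ptrf: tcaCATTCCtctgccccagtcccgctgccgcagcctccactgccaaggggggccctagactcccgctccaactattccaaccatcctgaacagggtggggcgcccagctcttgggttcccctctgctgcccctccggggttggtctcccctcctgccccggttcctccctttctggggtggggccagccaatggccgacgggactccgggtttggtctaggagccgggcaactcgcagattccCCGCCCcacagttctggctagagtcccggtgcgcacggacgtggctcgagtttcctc
S100a6: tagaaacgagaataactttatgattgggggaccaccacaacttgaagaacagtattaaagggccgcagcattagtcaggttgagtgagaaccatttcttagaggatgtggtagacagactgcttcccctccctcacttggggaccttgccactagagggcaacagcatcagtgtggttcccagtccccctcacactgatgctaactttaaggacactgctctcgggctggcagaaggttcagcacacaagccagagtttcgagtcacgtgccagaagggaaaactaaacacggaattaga

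The core bound by TEAD factors, CATTCC, was present once each in the Ahnak, Anxa1 and Ptrf windows and in 14.7% of the 32851 windows of the whole RefSeq table. The site of AP-1 factors, TGACTCA, was present once, in Anxa2, and in 5.20% of all windows. The GC box bound by SP factors, GGGCGG, was present at 4 places in Ahnak, 3 in Anxa2 and 1 in Ptrf, and in 35.7% of all windows. The TATA box, searched as TATAAA, was present in Anxa1 and Anxa2 and in 13.6% of all windows. The S100a6 window held none of these letters. Searches on both strands for the EGR 9-mers GCGGGGGCG and GCGTGGGCG, whose letters can overlap a GC box, found none in any of the 28 members with a RefSeq window and matches in 3.47% of all windows. Over the 28 members the TEAD core was in the windows of 6, the AP-1 site in 4, the GC box in 12 and the TATA box in 9. A member was counted when any of its windows matched, and some members have several. The percentages count single windows, so the 2 measures are not alike. The CArG box was found in 1 member, Anxa5, and in 1.63% of all windows. These matches describe the letters of the windows, and binding of a factor was not measured.

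Of the 35 members, 20 had at least 1 CPM in at least 3 libraries and entered the fit over 11941 genes. In that fit 11 of the 20 were higher in cKO, beside 20.9% of all genes tested. None of the 20 was lower, beside 15.9% of all genes in this fit and more under TMM or RLE scaling (2363 and 2375 genes, against 1904), and none was lower at an unadjusted p under 0.05 or by edgeR, DESeq2 or limma-voom. The fit was limma-trend on log2(CPM + 1) with Benjamini-Hochberg adjustment over all genes tested, and a gene was called at an adjusted p under 0.05. The higher members were 5 of 9 annexins, 3 of 8 S100 genes, both tested cavins and the 1 tested AHNAK gene. The median log2 fold change (cKO minus wild type) of the 20 was 0.41, and that of all genes tested was 0.03. In 11 members the lowest cKO library lay above the highest wild-type library, beside 26.9% of all genes, and in 0 members it was the reverse, beside 21.2% of all genes. A called change of at least 2-fold on the log2(CPM + 1) scale was seen in 4 of the 20, Anxa2, Ahnak, Ptrf and S100a6, beside 1.63% of all genes. One of the 20, S100a13, reached 1 CPM only in cKO and so had to differ once it entered the fit, and 10 of the other 19 were higher.

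**Figure D1:**
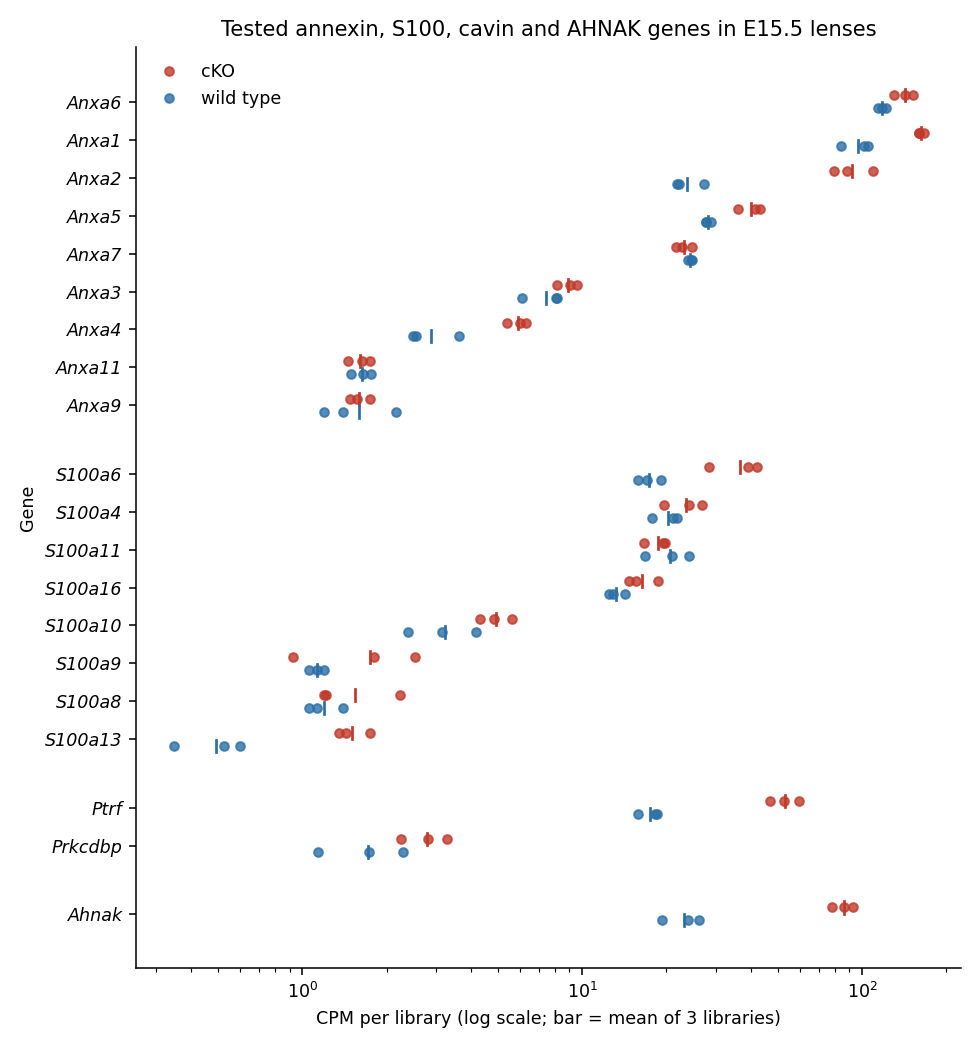
CPM of the 20 tested genes in each library (x axis, log scale), with cKO libraries drawn above wild-type libraries for each gene and a bar at each mean (n = 3 each). Anxa2, Ptrf and Ahnak show the widest gaps between the groups among genes above 10 CPM, while Anxa7, Anxa11, Anxa9 and S100a11 overlap.

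Among annexins, Anxa2 had the largest difference. Anxa2 (chr9:69453620-69491795, + strand, GRCm38) encodes the annexin that recruits S100A10 and binds plasminogen and its activator at the cell surface. Its level was 88.0, 79.5 and 109 CPM in cKO replicates 1, 2 and 3, against 22.1, 27.3 and 21.8 CPM in wild-type replicates 1, 2 and 3. The groups lay far apart, with the lowest cKO library well above the highest wild-type one. The ratio of the means was 3.89 and the log2 fold change 1.91 ± 0.12 (SE; adjusted p = 1.65e-07).

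Anxa1 (chr19:20373428-20390944, - strand) encodes the glucocorticoid-regulated annexin that signals through formyl peptide receptors. It had 166, 159.5 and 160.0 CPM in cKO, against 105, 102 and 84.3 CPM in wild type. The cKO libraries were nearly equal, while wild-type replicate 3 was lower than the other wild-type libraries. The ratio of the means was 1.67 and the log2 fold change 0.74 ± 0.09 (SE; adjusted p = 3.40e-05).

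Anxa6 (chr11:54979108-55033445, - strand), an annexin with a doubled core that is tied to endosome traffic and membrane repair, had 130.1, 143 and 153 CPM in cKO, against 114, 118 and 121 CPM in wild type. The groups were separate by a small margin, and the log2 fold change was 0.26 ± 0.08 (SE; adjusted p = 0.0173). This call was lost without cKO replicate 3 (adjusted p = 0.113) or without wild-type replicate 2 (adjusted p = 0.0590). Thus the most abundant annexin of wild-type lenses by CPM had the smallest difference among the 5 annexins called.

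Anxa5, the annexin used as a probe for exposed phosphatidylserine, had 36.0, 43.1 and 41.3 CPM in cKO, against 27.6, 27.7 and 28.9 CPM in wild type. The difference was 0.50 ± 0.09 on the log2 scale (SE; adjusted p = 7.77e-04). Anxa4, an annexin of epithelial cells that self-assembles on membranes, had 5.99, 5.39 and 6.30 CPM in cKO, against 3.64, 2.54 and 2.49 CPM in wild type. The difference was 0.83 ± 0.14 on the log2 scale (SE; adjusted p = 7.25e-04), at a level far below that of Anxa1, Anxa2, Anxa5 or Anxa6. The size for Anxa4 depended on the pseudocount: the log2 fold change was 1.02 at 0.1 CPM, and the ratio of the means was 2.04. Both genes had separate groups.

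The other 4 tested annexins did not pass the threshold. Anxa7, which binds membranes in secretion and calcium handling, averaged 23.0 ± 1.49 CPM in cKO, against 24.4 ± 0.46 CPM in wild type (SD, n = 3 each; log2 fold change -0.08). Anxa3 averaged 8.92 ± 0.74 CPM in cKO, against 7.43 ± 1.17 CPM in wild type (SD, n = 3 each; log2 fold change 0.24). Anxa9, an atypical annexin with altered calcium sites, and Anxa11, a partner of S100A6, lay between 1.20 and 2.17 CPM in all 6 libraries, with log2 fold changes of 0.02 and -0.01. All 4 had overlapping groups.

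**Figure D2:**
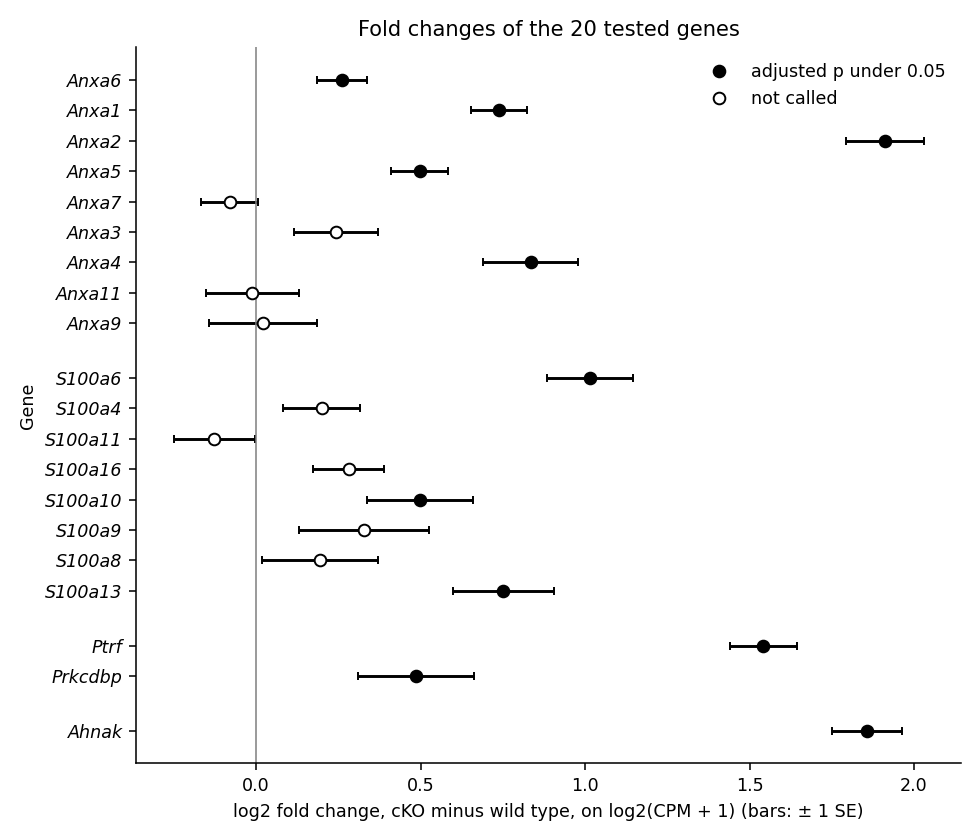
Log2 fold change (cKO minus wild type, on log2(CPM + 1)) of the 20 tested genes with ± 1 SE, filled where the adjusted p was under 0.05. The filled points run between 0.26 for Anxa6 and 1.91 for Anxa2, and no filled point lies below 0.

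The S100 genes were more mixed. S100a6 (chr3:90612882-90624181, + strand), which encodes calcyclin, a calcium sensor found in proliferating cells and able to bind annexins, had 39.2, 28.3 and 42.0 CPM in cKO, against 17.1, 19.1 and 15.9 CPM in wild type. Replicate 2 was the lowest of the cKO libraries and the highest of the wild-type libraries, and the groups still did not overlap. The ratio of the means was 2.10 and the log2 fold change 1.01 ± 0.13 (SE; adjusted p = 9.52e-05).

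S100a13, which encodes a protein that takes part in the release of growth factors without a signal peptide, had 1.35, 1.43 and 1.74 CPM in cKO, against 0.347, 0.526 and 0.599 CPM in wild type. The difference was 0.75 ± 0.15 on the log2 scale (SE; adjusted p = 2.20e-03), and the wild-type value rests on 4 to 6 reads a library. The size depended on the pseudocount: the log2 fold change was 1.46 at a pseudocount of 0.1 CPM, 1.53 in limma-voom and 1.61 in DESeq2 and edgeR, and the ratio of the means was 3.08. S100a10, the partner of annexin A2, had 4.84, 4.30 and 5.62 CPM in cKO, against 4.16, 3.16 and 2.39 CPM in wild type. The lowest cKO library was close to the highest wild-type library, and the log2 fold change was 0.50 ± 0.16 (SE; adjusted p = 0.0281). That call was lost in DESeq2 (adjusted p = 0.0702) and without cKO replicate 1 (0.0572), cKO replicate 3 (0.122), wild-type replicate 2 (0.0702) or wild-type replicate 3 (0.101).

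S100a16, a widely expressed member of the family, had 14.7, 15.53 and 18.7 CPM in cKO, against 14.2, 12.9 and 12.5 CPM in wild type. The groups did not overlap but the gene did not pass the threshold (log2 fold change 0.28 ± 0.11, SE; adjusted p = 0.0574). S100a4, which binds non-muscle myosin and is known from motile and mesenchymal cells, averaged 23.5 ± 3.59 CPM in cKO, against 20.2 ± 2.15 CPM in wild type (SD, n = 3 each; log2 fold change 0.20). S100a11, a partner of annexin A1, averaged 18.6 ± 1.71 CPM in cKO, against 20.6 ± 3.69 CPM in wild type (SD, n = 3 each; log2 fold change -0.13). S100a4 and S100a11 had overlapping groups.

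S100a8 and S100a9 encode the subunits of calprotectin, which neutrophils hold in large amounts. S100a8 had 1.20, 2.23 and 1.21 CPM in cKO, against 1.13, 1.05 and 1.397 CPM in wild type. S100a9 had 1.797, 2.52 and 0.925 CPM in cKO, against 1.13, 1.05 and 1.20 CPM in wild type. Both were highest in cKO replicate 2, neither passed the threshold, and both had overlapping groups. The sum of 8 neutrophil markers was 2.15 to 3.17 CPM in cKO, against 1.65 to 2.10 CPM in wild type, and the 1 marker tested did not pass.

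Most mouse S100 genes lie together on chromosome 3, and the members that were higher were not neighbours there. Along the chromosome the order was S100a1, S100a13, S100a14, S100a16, S100a3, S100a2, S100a4, S100a5, S100a6, S100a8 and S100a9, and then, after 2825 kb that hold 60 other coding genes, S100a11 and S100a10. S100a13 lies between S100a1 and S100a14, both too low to test. Among the S100 members, S100a6 lies between S100a5, which was listed at 0, and S100a8, which did not pass. The 44.8 kb between S100a6 and S100a8 hold 1 other coding gene, whose level was not examined. S100a10 lies 28.8 kb from S100a11, which had the lowest fold change of the members tested.

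**Figure D3:**
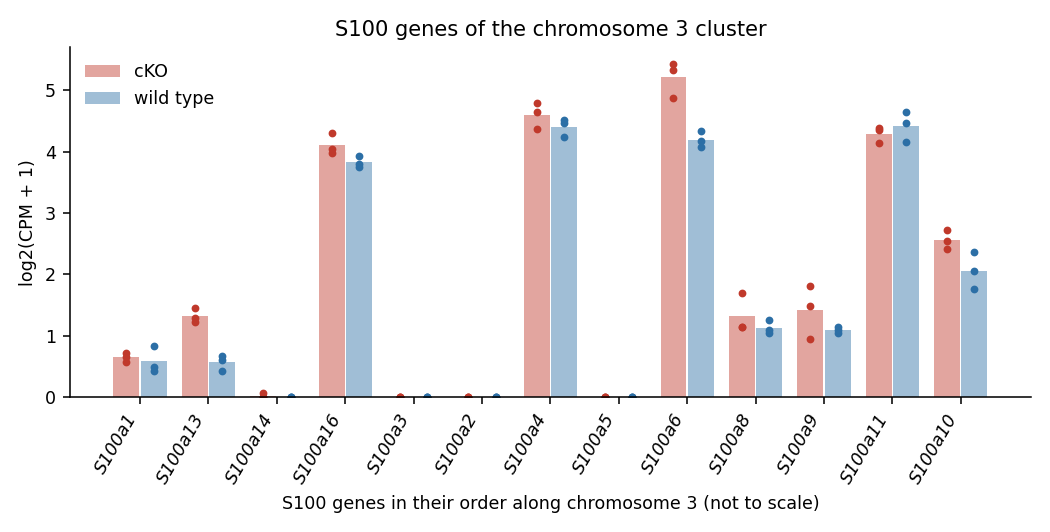
Level of the S100 genes of chromosome 3 as log2(CPM + 1), in genomic order from left to right, with bars at the mean and points for the 3 cKO (left) and 3 wild-type (right) libraries of each gene. The means of S100a6 are farthest apart, by 1.01, while the S100 genes drawn on either side of it are at 0 or overlap.

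The 3 genes of the annexin A2, S100A10 and AHNAK complex were all higher in cKO, by unequal amounts. Ahnak (chr19:8989284-9076914, + strand) had 78.2, 86.5 and 92.8 CPM in cKO, against 19.3, 23.8 and 26.0 CPM in wild type. Every cKO library was far above every wild-type library. The ratio of the means was 3.72 and the log2 fold change 1.86 ± 0.11 (SE; adjusted p = 5.15e-08). Per length, Ahnak stayed well below Anxa2, since its transcript is among the longest of the genome.

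Per length, Anxa2 averaged 24.7 ± 4.11 RPKM in cKO and 6.35 ± 0.83 RPKM in wild type, and S100a10 averaged 4.06 ± 0.55 RPKM in cKO and 2.67 ± 0.73 RPKM in wild type (SD, n = 3 each). The Anxa2 to S100a10 ratio of RPKM was 5.91, 6.00 and 6.31 in cKO, against 1.73, 2.81 and 2.95 in wild type. This ratio was chosen after the values had been seen. Like the other ratios here, it restates the fold changes of its genes and shows nothing beyond them. The ratio of Ptrf to Prkcdbp was 6.02, 5.36 and 5.25 in cKO, against 3.07, 4.62 and 1.98 in wild type. The ratio of Anxa1 to its partner S100a11 was 1.67, 1.88 and 1.58 in cKO, against 0.979, 0.827 and 0.986 in wild type, and that of Anxa11 to its partner S100a6 was lower in cKO, at 0.00775, 0.0100316 and 0.00605, against 0.0168, 0.01595 and 0.0164 in wild type. S100a11 and Anxa11 share many words with other genes and are uncertain. The size of each ratio also rests on the lengths behind the deposited RPKM. For Prkcdbp, S100a6 and Anxa1 these were shorter than in the GENCODE M21 annotation. A ratio in cKO against the same ratio in wild type does not depend on them.

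**Figure D4:**
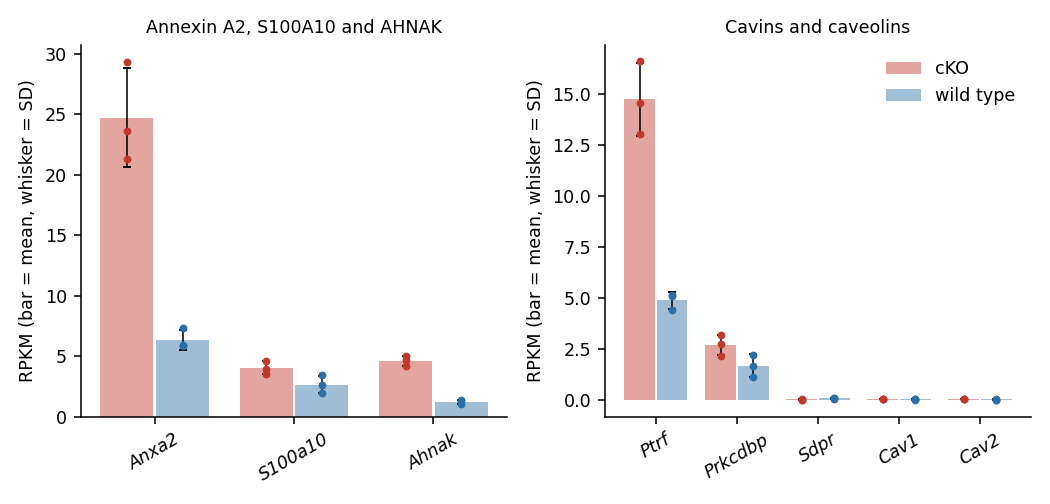
RPKM of the annexin A2, S100A10 and AHNAK genes (left panel) and of the cavins and caveolins (right panel), with bars at the mean, whiskers of ± 1 SD and points for the 3 cKO and 3 wild-type libraries. Anxa2 and Ptrf stand out in cKO, while Sdpr, Cav1 and Cav2 lie at the base line in both groups.

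Among caveola genes, Ptrf (chr11:100956733-100970887, - strand), which encodes cavin 1, the coat protein without which caveolae do not form, had 46.9, 52.4 and 59.6 CPM in cKO, against 18.5, 18.2 and 15.8 CPM in wild type. The groups were well apart. The ratio of the means was 3.03 and the log2 fold change 1.54 ± 0.10 (SE; adjusted p = 2.01e-07). Prkcdbp, which encodes cavin 3, a cavin that binds protein kinase C delta, had 2.25, 2.82 and 3.27 CPM in cKO, against 1.73, 1.14 and 2.29 CPM in wild type. Its groups overlapped, with cKO replicate 1 just under wild-type replicate 3 (log2 fold change 0.49 ± 0.18, SE; adjusted p = 0.0446). The Prkcdbp call was lost at a pseudocount of 0.1 CPM (adjusted p = 0.0512), in DESeq2 (0.102) and without cKO replicate 2 (0.102), cKO replicate 3 (0.173), wild-type replicate 1 (0.0749) or wild-type replicate 2 (0.183, with a log2 fold change of 0.32).

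The caveolins and the remaining cavin were counted in very few reads. Cav1, which encodes a main structural protein of caveolae, had 2, 3 and 4 reads in cKO and 1, 0 and 1 reads in wild type. Cav2, its partner, had 1 read in each cKO library and 0, 2 and 0 reads in wild type. Sdpr, which encodes the membrane-bending cavin 2, had 0, 0 and 3 reads in cKO and 3, 1 and 3 reads in wild type. In the cKO libraries with 46.9 to 59.6 CPM of Ptrf, Cav1 and Cav2 thus had at most 4 reads each, and endothelial markers summed to 242 CPM or more. No 50-base word, the length of a read, of Cav1, Cav2 or Sdpr occurs in another listed gene, and none of their exons overlaps another listed gene. The rest of the genome was not searched, and the aligner and counter are not known. The cause of the low counts was not tested.

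The remaining members were also too low to test. S100a1 had 13, 10 and 16 reads in cKO and 4, 9 and 4 reads in wild type, and Ahnak2 had 6, 4 and 7 reads in cKO and 1, 3 and 2 reads in wild type. With the reads of each group summed and scaled by its depth, S100a1 had 0.571 CPM in cKO, against 0.516 CPM in wild type, and Ahnak2 had 0.249 CPM in cKO, against 0.182 CPM in wild type. Anxa8 had 2, 0 and 4 reads in cKO and 0 in every wild-type library. S100b, a glial marker elsewhere, had 2 reads over all 3 libraries of each group, and S100a14 had 1 read in all. Anxa10, Anxa13, S100a2, S100a3, S100a5, S100g and S100z, 7 genes, were listed at 0 in all 6 libraries. A count of 0 over 68346349 cKO reads allows up to 0.0439 CPM (3 reads), and over 32961345 wild-type reads up to 0.0910 CPM, for counting error only.

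The order of the annexins by level per length differed between the groups. In cKO, Anxa1 was first at 62.0 ± 1.36 RPKM and Anxa6 next at 48.4 ± 3.84 RPKM (SD, n = 3). Anxa2 at 24.7 RPKM and Anxa5 at 23.9 RPKM followed and did not differ beyond their spread. Anxa7, Anxa3, Anxa4, Anxa9 and Anxa11 came below, between 7.76 and 0.390 RPKM. In wild type, Anxa6 at 40.3 ± 1.19 RPKM and Anxa1 at 37.2 ± 4.25 RPKM (SD, n = 3) did not differ beyond their spread, and Anxa5 at 16.7 RPKM and Anxa7 at 8.22 RPKM both stood above Anxa2 at 6.35 RPKM. With the lengths behind the deposited RPKM, Anxa2 thus ranked above Anxa7 in cKO and below it in wild type. The length used for Anxa7 was shorter than its 5991 exonic bases in the GENCODE M21 annotation. At 5991 bases Anxa7 would lie below Anxa2 in wild type too, so this swap depends on the length. The lengths used for Anxa1, Anxa3, Anxa4 and Anxa5 were also shorter than there.

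Among S100 genes in cKO, S100a6 at 50.7 ± 10.05 RPKM, S100a4 at 40.0 ± 6.12 RPKM and S100a11 at 36.5 ± 3.35 RPKM (SD, n = 3) were highest, each overlapping the next. In wild type, S100a11 at 40.3 ± 7.22 RPKM and S100a4 at 34.4 ± 3.66 RPKM were highest and overlapped, and S100a6 stood below both at 24.1 ± 2.28 RPKM (SD, n = 3). S100a16 came next in both groups, at 10.1 RPKM in cKO and 8.16 RPKM in wild type. S100a10, S100a8 and S100a9 were 2.16 to 4.06 RPKM in the 2 groups and S100a13 came last in both. With the lengths behind the deposited RPKM, the 3 highest S100 genes of each group were thus the same ones, in another order. The length used for S100a6 was shorter than its 1367 exonic bases in the GENCODE M21 annotation. At 1367 bases S100a6 would lie below S100a4 and S100a11 in both groups, so its place in cKO depends on the length. The level of S100a11 is uncertain, since 41.1% of its 50-base words occur in other listed genes.

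Summed CPM of each family kept the groups apart. The 12 annexins summed to 462, 466 and 503 CPM in cKO, against 308, 313 and 292 CPM in wild type. The 16 S100 genes summed to 107, 91.2 and 117 CPM in cKO, against 80.7, 84.4 and 68.9 CPM in wild type, the narrowest gap of the families. The caveolin and cavin genes, nearly all of it Ptrf, summed to 49.3, 55.4 and 63.2 CPM in cKO, against 20.6, 19.6 and 18.5 CPM in wild type. Within cKO, replicates 1, 2 and 3 were the lowest library in 9, 8 and 3 of the 20 tested members, and in 57.2%, 15.0% and 27.9% of all genes tested. Within wild type, replicates 1, 2 and 3 were the lowest library in 5, 3 and 12 members, and in 39.6%, 31.6% and 28.7% of all genes tested. These shares were not tested.

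The genes that work with these families did not move as one, in lists put together with earlier results of these data known. Of 9 plasminogen system genes 3 were tested, 2 were higher and none was lower. Of all genes tested 20.9% were higher and 15.9% lower, and 3 genes are too few to set against these shares. Plat, which encodes the tissue-type plasminogen activator that annexin A2 binds, had 23.2, 23.0 and 23.5 CPM in cKO, against 6.68, 6.84 and 7.08 CPM in wild type (log2 fold change 1.62; adjusted p = 5.98e-08). Its replicates were closely alike within each group. Serpine2, an inhibitor of plasminogen activators, averaged 6.45 ± 1.42 CPM in cKO, against 4.03 ± 0.39 CPM in wild type (SD, n = 3 each; log2 fold change 0.55; adjusted p = 0.009997). The median of the 3 tested was 0.55.

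Of 12 caveola accessory genes 10 were tested, 2 were higher and 2 were lower, which is close to the shares of all genes tested (20.9% higher, 15.9% lower), with a median log2 fold change of -0.05. Ehd4, of the family of ATPases at caveola necks, averaged 10.9 ± 2.05 CPM in cKO, against 4.56 ± 0.72 CPM in wild type (SD, n = 3 each; log2 fold change 1.09; adjusted p = 1.00e-04). Flot1 and Flot2, which encode the flotillins of another kind of membrane domain, both fell. Flot1 averaged 44.6 ± 1.55 CPM in cKO, against 63.8 ± 4.35 CPM in wild type (SD, n = 3 each; log2 fold change -0.51; adjusted p = 3.53e-04), and Flot2 had a log2 fold change of -0.44. Pacsin1, a membrane-bending F-BAR protein, was the other higher gene, at 0.49 with overlapping groups. Ehd2, the ATPase best known from caveolae, averaged 20.4 CPM in cKO, against 19.98 CPM in wild type and did not pass.

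Of 13 membrane repair genes 12 were tested, 3 were higher and 2 were lower, shares close to the 20.9% higher and 15.9% lower of all genes tested, with a median log2 fold change of 0.04. Dysf, which encodes the repair protein dysferlin, averaged 10.8 ± 0.76 CPM in cKO, against 6.43 ± 0.58 CPM in wild type (SD, n = 3 each; log2 fold change 0.66; adjusted p = 6.74e-04). Its relative Myof was higher at 0.52 and the ESCRT ATPase Vps4b at 0.26. Myof reached 1 CPM in 3 cKO libraries but in only 1 wild-type library, so it entered the fit through its cKO level. Capns1, the small subunit of the calpain proteases, averaged 247 ± 3.95 CPM in cKO, against 342 ± 14.0 CPM in wild type (SD, n = 3 each; log2 fold change -0.47; adjusted p = 1.92e-04), and Smpd1, acid sphingomyelinase, was lower at -0.26.

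Of 11 other EF-hand calcium binders 7 were tested, 2 were higher and 1 was lower. The shares of all genes tested were 20.9% higher and 15.9% lower. Calm2, a calmodulin gene, was higher at a log2 fold change of 0.32 and Sri, which encodes sorcin, at 0.21, while Pef1, which encodes peflin, was lower at -0.34. Of 8 receptor genes for annexins and S100 proteins 3 were tested and 1 was lower, beside 15.9% of all genes tested. Bsg, which encodes basigin, a receptor for S100A9, was lower at -0.29, and the formyl peptide receptor genes Fpr2 and Fpr3 were listed at 0. Of 4 channel genes whose proteins bind S100A10 only Asic1 was tested, and it did not pass. None of the 7 S100-fused-type genes, which encode filaggrin and its relatives of the epidermis, was tested, and 5 of them were listed at 0.

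**Figure D5:**
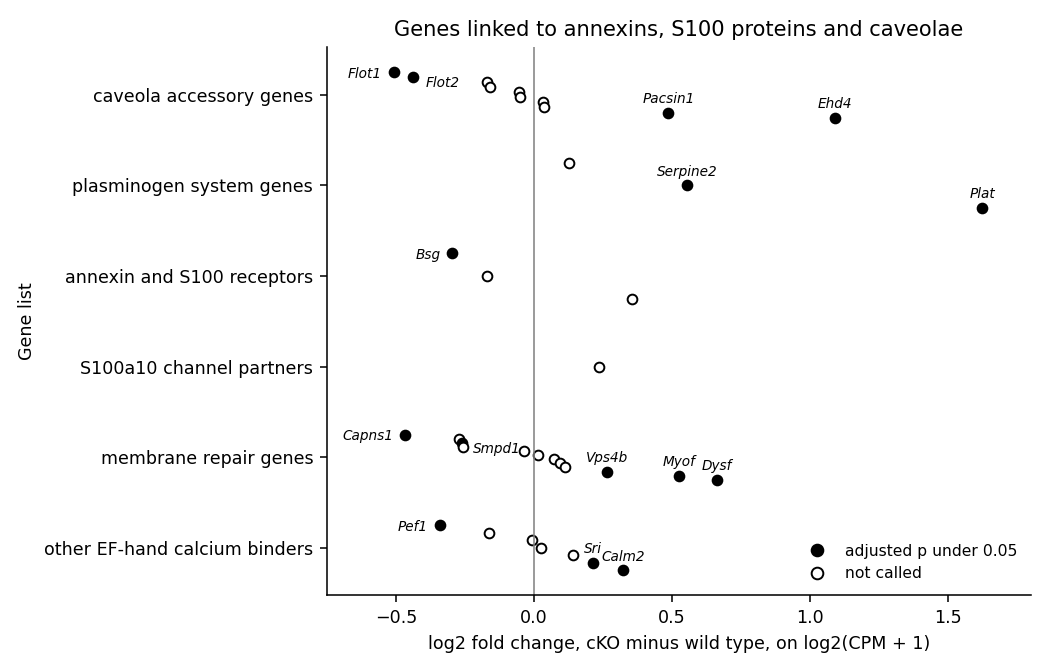
Log2 fold change (cKO minus wild type, on log2(CPM + 1)) of the tested genes in 6 lists linked to annexins, S100 proteins and caveolae, 1 row a list, filled where the adjusted p was under 0.05. Plat at 1.62 and Ehd4 at 1.09 are farthest to the right, and the caveola, repair and EF-hand lists hold filled points on both sides of 0.

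Some members share sequence with other listed genes, and the libraries do not mark strand. For S100a11, 41.1% of its 50-base words occur in Gm12854 or Gm7665, and for Anxa11 16.2% occur in Gm2260, Gm2274 or Anxa11os. For Anxa4, 0.737% of its words occur in other listed genes, spread over 94 of them. Exons of Anxa2 overlap Gm16144 on the other strand over 2.63% of their length and those of Anxa9 overlap neighbouring genes over 7.96%. No 50-base word of Ahnak, Anxa1, Anxa5, Anxa6, Ptrf, Prkcdbp, Cav1, Cav2, Sdpr, S100a6, S100a10 or S100a13 was found in another listed gene.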

How the data were processed

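Poly(A) RNA of pooled E15.5 lenses was read as 50-base single-end reads from libraries that do not mark strand, per the labels' protocols. The authors deposited CPM and RPKM for each gene and library, per the file headers. Per the submitters' processing notes, edgeR was used and the build was GRCm38. The sources used here do not give the aligner, the counter or the annotation release. All CPM values were whole multiples of 1 read within 0.02 reads, so whole reads were recovered.

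The plan named edgeR for raw counts. Because the values were CPM, limma 3.58.1 (R 4.3.3) was run on log2(CPM + 1) with robust moderation and group as the only term, for genes that reached 1 CPM in 3 or more libraries. Such fold changes understate the change of low genes. Nothing says more of the biological replicates than that each is a pool of lenses, and p-values measure the spread between pools. The 15 alternatives were TMM and RLE scaling, no filter, a required mean of 5 CPM, 0.1 CPM as pseudocount, a replicate block, limma-voom, edgeR 4.0.16 and DESeq2 1.42.0 on recovered reads, and leaving out each library in turn. The fit was also run on counts simulated from the wild-type means, with far fewer changed genes than were called here. That run does not measure the errors of the fit in these data.

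The members and gene lists were chosen with earlier results of these data known. Per-library values are given for members with a mean of at least 50 CPM or called with a log2 fold change of at least 0.5, and for Anxa5, S100a10, S100a8, S100a9, S100a16 and Prkcdbp and the reads of untested members, chosen after their values were seen. Of each partner list up to 4 genes with the smallest adjusted p are named; Ehd2 and Vps4b were added after their values were seen. Gene positions and shared words are from GENCODE M21 and promoter windows from RefSeq GRCm38.p6. The lengths behind the deposited RPKM were shorter than the GENCODE M21 exonic lengths for some members, among them Anxa7, S100a6 and Prkcdbp.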

Additional observations from a re-analysis of the deposited data

How the results depend on the processing

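The count of members higher in cKO was 11 in the analysis as reported and under TMM scaling, RLE scaling, no filter on low values, limma-voom and edgeR. It was 10 at a pseudocount of 0.1 CPM, 9 in DESeq2 and 8 to 11 when 1 library was left out. It was 7 where a mean of at least 5 CPM was required, since only 12 members were then tested. With the replicate block 12 members were higher, and 2916 genes were higher and 2249 lower. Correlations of deviations were 0.327, -0.034 and 0.147 between libraries of the same number, against -0.314 to 0.207 between libraries of different numbers. These values do not settle whether the replicate numbers pair the samples. The labels do not say that a number marks a shared litter, batch or day. Over all genes 2499 were higher and 1904 lower as reported, 2413 and 2363 under TMM, 2407 and 2375 under RLE, 2343 and 2395 in limma-voom, 1967 and 2066 in DESeq2 and 2388 in each direction in edgeR; 1819 to 2403 were higher and 1334 to 1934 lower when 1 library was left out. No member was lower under any of the 15 alternatives.

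Of 292 values of single members under the alternatives, 267 kept their direction and their side of the threshold, 13 lost the call, 4 gained it and 8 changed sign. The changes of sign were in Anxa11, -0.01 as reported and -0.049 to 0.032 when 1 library was left out, and in Anxa9, 0.02 as reported, -0.017 in limma-voom, -0.030 in DESeq2, -0.037 in edgeR and -0.087 to 0.18 when 1 library was left out. Neither gene passed the threshold in any of them, and the cause was not tested. The gained calls were S100a16 with the replicate block (adjusted p = 0.0358) and without cKO replicate 1 (0.0395), S100a4 without cKO replicate 2 (0.0468) and S100a9 without cKO replicate 3 (0.0367). Depth limits the low members: S100a13 rests on 4 to 6 wild-type reads a library, and S100a8, S100a9, Anxa9, Anxa11 and Prkcdbp rest on 12 to 25.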
